A study of Arabidopsis thaliana with 12 samples.

Results

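The genes described here encode the DNA replication machinery of *Arabidopsis thaliana*: 46 loci, picked by locus identifier from a list of known replication proteins and not by their values. They are the MCM helicase genes, the origin recognition complex (*ORC* genes), the licensing loaders *CDC6* and *CDT1*, *CDC45* and the GINS complex, DNA polymerases alpha, delta and epsilon, the clamp and its loader, nucleotide supply and the processing of Okazaki fragments. All 46 were found among the 23071 genes of the count table, and all 46 passed the filter on low counts that left 22636 genes to test. The lowest count of any of them in a library was 122.

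RNA was counted from whole seedlings in 12 libraries, 3 biological replicates from each of 4 transgenic lines, with 50 seedlings pooled per library at 2 days post-germination. Every line is homozygous for a *MUTE* transgene under the *MUTE* promoter in mute-3 plants, which lack the function of the native gene. MUTEPPP#3 (line 3) carries the substitutions H3P, E7P and R11P, MUTEv5#5 (line 5) and MUTEv5#2 (line 2) both carry R10W, and MUTE (line 1) carries the wild-type protein; positions are those of the submitters. The submitters chose MUTEv5#5 for arrested lineages and MUTEv5#2 for moderately clustered stomata, so the lines ask which transcripts go with each altered protein. MUTEPPP and MUTE are each represented by 1 line, so an effect of the allele and of that line or its insertion cannot be told apart. In whole seedlings, fewer cells of a type and less RNA per cell cannot be told apart either. Library totals ran from 117868477 to 152600239 counts. The *MUTE* gene itself stood at 6.93, 5.42 and 5.32 CPM (counts per 1000000 of the TMM-scaled library total) in MUTEPPP#3, 24.5, 14.4 and 16.8 CPM in MUTEv5#5, 12.9, 10.8 and 8.26 CPM in MUTEv5#2 and 6.1, 5 and 4.85 CPM in MUTE.

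The MUTE protein, a bHLH transcription factor, drives stomatal precursors out of repeated asymmetric division and towards guard cells. Before S phase, the origin recognition complex marks origins on chromatin, and CDC6 and CDT1 load the MCM2 to MCM7 ring there, which licenses the origin. CDC45 and GINS then join the ring to form the active helicase, primase and DNA polymerase alpha start each strand, and polymerases delta and epsilon extend it on the PCNA clamp that replication factor C loads. In plants as in animals, many of these genes are transcribed at the G1 to S transition under E2F factors, so their summed RNA is widely used as a sign of cells entering S phase.

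Replication genes were higher in MUTEPPP#3 than in the MUTE line, and the origin recognition complex had the largest median of the 9 roles. With edgeR's quasi-likelihood test and Benjamini-Hochberg adjustment over all genes tested (adjusted p under 0.05), 20 of 46 rose in MUTEPPP#3 over MUTE, or 43.5%, against 10.7% of all genes tested. 1 of 46 fell, or 2.17%, against 13.9% of all genes. The log2 fold change was above zero for 43 of 46, with a median of 0.42, where the median over all genes was near zero, and the calls that rose ran from 0.38 to 0.96. In 23 of 46 the 3 MUTEPPP#3 libraries all lay above the 3 MUTE libraries, and in 2 of 46 all below, while the groups separated in this way for 19.2% and 21.5% of all genes. The rise came mostly from MUTEPPP#3 replicates 2 and 3: with neither of them the median was 0.12. That fit leaves 1 MUTEPPP#3 library, so its number of calls cannot be read. Replicate 1 carried the smallest part of the rise. Without it 31 of 46 genes were called higher, against 10.9% of all genes.

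**Figure D1:**
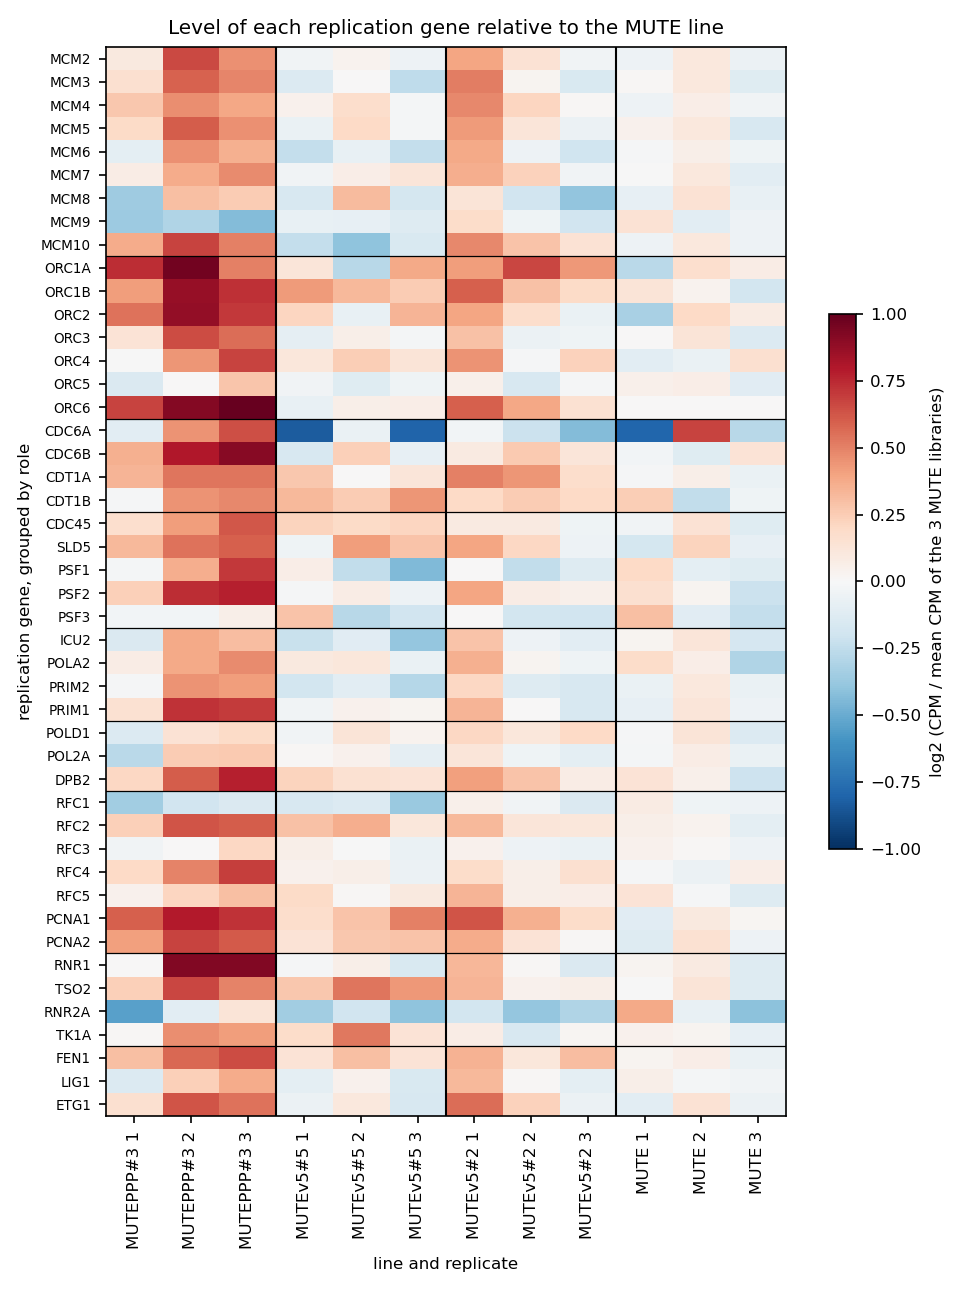
Level of each of the 46 replication genes (rows, grouped by role) in each of the 12 libraries (columns), as log2 of CPM over the mean CPM of the 3 MUTE libraries, with colours limited to -1 and 1. The columns of MUTEPPP#3 replicates 2 and 3 are red for most genes (medians 0.52 and 0.50), and MUTEPPP#3 replicate 1 is paler (0.12).

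The promoters of replication genes were read because the genes moved together and E2F factors are known to act on them. The 4 motifs searched were TTTCCCGC, TTTGGCGC, TTTCGCGC and TTTGCCGC, each on both strands; a reverse complement that overlaps another motif was counted once per promoter. A window of 300 bases, from 250 before the annotated gene start to 50 after it, held a match in 18 of 46 replication genes (39.1%) and in 394 of 21154 protein-coding genes tested (1.86%). TTTCCCGC was found in 16 of the 18, TTTGGCGC in 4, TTTGCCGC in 1 and TTTCGCGC in 0. Among the 18 genes with a match, 10 rose in MUTEPPP#3 over MUTE, with a median log2 fold change of 0.45; among the 28 without, 10 rose and 1 fell, with a median of 0.34. The 250 bases before the gene start are printed for 4 genes that rose and hold a match, and for *ORC6*, which rose most and holds none (RefSeq, TAIR10.1, 5′ to 3′ on the gene's strand, motif in capitals; a motif on the opposite strand reads as its reverse complement).
ORC2, chr2:15758351-15758600, plus strand: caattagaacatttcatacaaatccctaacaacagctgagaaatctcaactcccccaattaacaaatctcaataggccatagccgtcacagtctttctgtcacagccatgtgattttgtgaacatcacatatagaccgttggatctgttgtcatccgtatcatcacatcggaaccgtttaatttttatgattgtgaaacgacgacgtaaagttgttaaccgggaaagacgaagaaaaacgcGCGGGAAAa
CDC6B, chr1:2233018-2233267, minus strand: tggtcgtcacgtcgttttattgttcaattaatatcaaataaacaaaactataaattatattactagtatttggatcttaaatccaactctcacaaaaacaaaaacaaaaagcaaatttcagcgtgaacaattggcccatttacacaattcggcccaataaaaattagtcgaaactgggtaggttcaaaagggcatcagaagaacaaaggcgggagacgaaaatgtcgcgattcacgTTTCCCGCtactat
FEN1, chr5:9315551-9315800, minus strand: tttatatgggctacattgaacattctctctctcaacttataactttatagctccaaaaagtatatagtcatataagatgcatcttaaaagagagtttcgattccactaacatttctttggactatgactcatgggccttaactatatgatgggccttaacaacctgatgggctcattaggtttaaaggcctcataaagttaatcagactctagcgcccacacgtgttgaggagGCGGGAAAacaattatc
MCM4, chr2:7130730-7130979, minus strand: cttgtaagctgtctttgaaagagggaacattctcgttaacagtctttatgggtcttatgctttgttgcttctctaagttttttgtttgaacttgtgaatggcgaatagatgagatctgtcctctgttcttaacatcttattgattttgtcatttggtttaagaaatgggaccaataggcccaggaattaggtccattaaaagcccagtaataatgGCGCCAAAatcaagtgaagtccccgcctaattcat
ORC6, chr1:9298420-9298669, plus strand: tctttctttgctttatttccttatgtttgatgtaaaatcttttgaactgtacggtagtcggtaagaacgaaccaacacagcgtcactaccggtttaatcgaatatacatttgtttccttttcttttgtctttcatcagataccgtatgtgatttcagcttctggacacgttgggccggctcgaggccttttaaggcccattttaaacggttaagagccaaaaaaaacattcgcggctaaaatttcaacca
The match began 9 bases before the gene start in *ORC2*, 14 in *CDC6B*, 17 in *FEN1* and 35 in *MCM4*. In *ORC2*, *FEN1* and *MCM4* it lay on the opposite strand. A match is a stretch of letters and not a tested binding site, and the absence of one in *ORC6* says only that these letters are not in that window.

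The origin recognition complex had the largest median of the roles, which were not tested against each other. It binds origins and recruits the loaders, and 5 of its 7 genes rose in MUTEPPP#3 over MUTE, with a median log2 fold change of 0.68. In MUTEv5#2 over MUTE 0 of 7 were called and the median was 0.235. There 3 of 7 lay wholly above MUTE, against 14.2% of all genes. *ORC6* (AT1G26840), which encodes its smallest subunit, stood at 5.82, 6.87 and 8.61 CPM in MUTEPPP#3, 3.46, 3.8 and 3.82 CPM in MUTEv5#5, 5.52, 4.76 and 4.05 CPM in MUTEv5#2 and 3.64, 3.64 and 3.64 CPM in MUTE. All 3 MUTEPPP#3 libraries exceeded every library of the other lines, while the MUTE libraries hardly differed among themselves. MUTEv5#2 also lay wholly above MUTE without a call, and *ORC6* was not called in MUTEPPP#3 over MUTEv5#2. The mean was 7.1 ± 1.41 CPM in MUTEPPP#3 and 3.64 CPM in each MUTE library (log2 fold change 0.96 with SE 0.15, adjusted p = 0.00246). *ORC1B* (AT4G12620), 1 of 2 genes for the large ATPase subunit, stood at 9.43, 12.9 and 11.7 CPM in MUTEPPP#3, 9.48, 8.85 and 8.43 CPM in MUTEv5#5, 10.7, 8.65 and 8.05 CPM in MUTEv5#2 and 7.74, 7.23 and 6.22 CPM in MUTE. Each variant line lay wholly above MUTE here, and MUTEPPP#3 overlapped both MUTEv5 lines (log2 fold change 0.68 with SE 0.14, adjusted p = 0.00774). Its paralog *ORC1A* (AT4G14700) stood at 1.89, 2.21 and 1.6 CPM in MUTEPPP#3, 1.23, 0.932 and 1.47 CPM in MUTEv5#5, 1.51, 1.8 and 1.53 CPM in MUTEv5#2 and 0.935, 1.27 and 1.19 CPM in MUTE (log2 fold change 0.75 with SE 0.21, adjusted p = 0.024). Its MUTEPPP#3 libraries all lay above the MUTE libraries, and so did its MUTEv5#2 libraries, without a call there. The transcripts of the paralogs align at 89.6% identity over 2459 bases, so reads may have been split between them. *ORC2* (AT2G37560) stood at 3.51, 4.42 and 3.93 CPM in MUTEPPP#3, 2.79, 2.29 and 3.05 CPM in MUTEv5#5, 3.17, 2.72 and 2.3 CPM in MUTEv5#2 and 1.93, 2.76 and 2.55 CPM in MUTE (log2 fold change 0.71 with SE 0.18, adjusted p = 0.0181). *ORC3* (AT5G16690) stood at 4.9, 7.01 and 6.57 CPM in MUTEPPP#3, 4.19, 4.65 and 4.41 CPM in MUTEv5#5, 5.47, 4.28 and 4.34 CPM in MUTEv5#2 and 4.47, 4.87 and 4.05 CPM in MUTE (log2 fold change 0.46 with SE 0.15, adjusted p = 0.0484). Both genes lay above every MUTE library in all 3 MUTEPPP#3 libraries, but *ORC3* lost its call in 16 of 23 other settings. *ORC4* (AT2G01120, log2 fold change 0.40) and *ORC5* (AT4G29910, 0.05) did not pass the test, and the 95% interval of *ORC5* ran from -0.19 to 0.29.

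**Figure D2:**
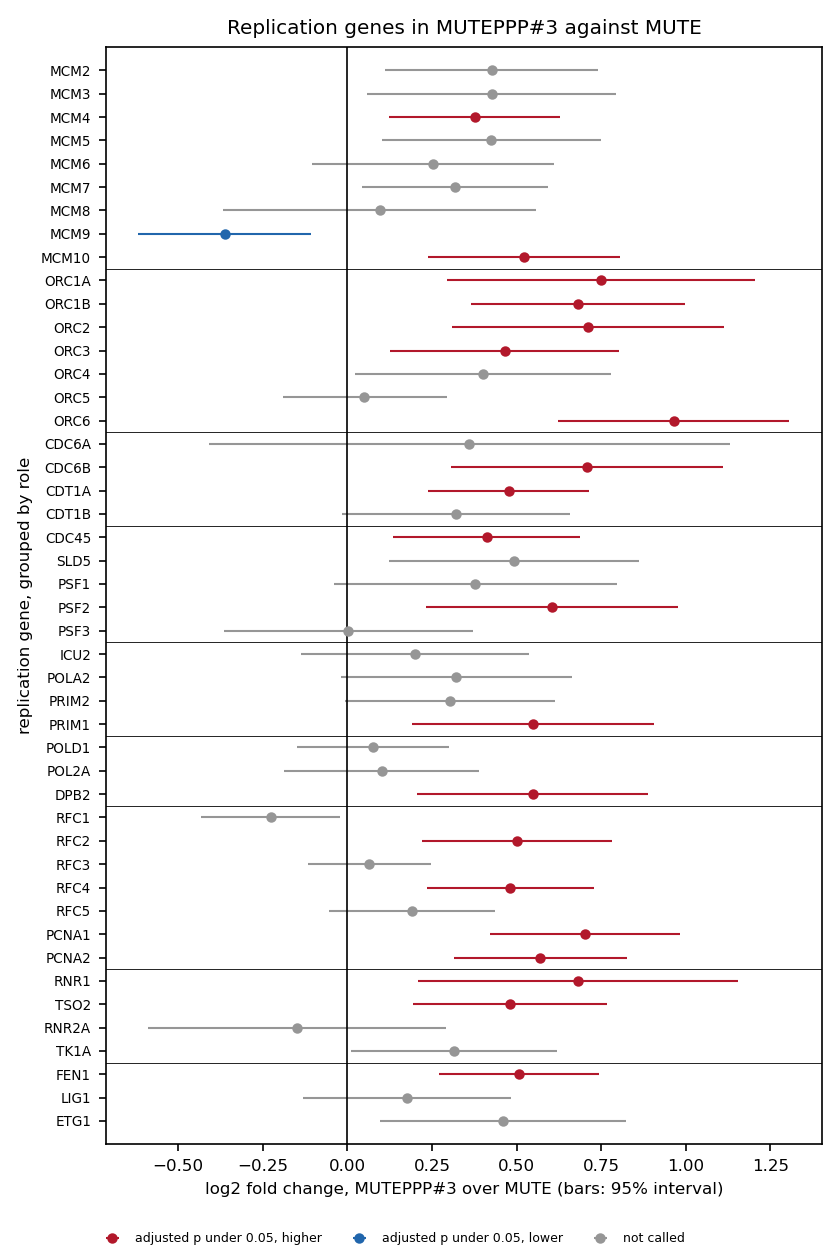
Log2 fold change of each replication gene in MUTEPPP#3 over MUTE with its 95% interval, grouped by role (edgeR). The 20 genes called higher (red) run from 0.38 to 0.96, and *MCM9* (blue) is the only one of the 46 called lower.

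Of the loaders, which bring the MCM ring to the origin, *CDC6B* and *CDT1A* rose in MUTEPPP#3, 2 of 4 genes. *CDC6B* (AT1G07270) stood at 1.43, 1.95 and 2.11 CPM in MUTEPPP#3, 1, 1.32 and 1.06 CPM in MUTEv5#5, 1.19, 1.34 and 1.22 CPM in MUTEv5#2 and 1.1, 1.03 and 1.23 CPM in MUTE (log2 fold change 0.71 with SE 0.18, adjusted p = 0.0182). Its MUTEPPP#3 libraries lay above every other library. The paralog *CDC6A* (AT2G29680) stood at 6.11, 8.96 and 10.3 CPM in MUTEPPP#3, 3.69, 6.28 and 3.78 CPM in MUTEv5#5, 6.46, 5.66 and 4.88 CPM in MUTEv5#2 and 3.8, 10.5 and 5.43 CPM in MUTE. The MUTE libraries alone spanned almost the full range of the gene, and it was not called (log2 fold change 0.36 with SE 0.35, adjusted p = 0.484). *CDT1A* (AT2G31270), which encodes the CDT1 loader also targeted for destruction after licensing, stood at 17.3, 19.8 and 19.9 CPM in MUTEPPP#3, 16.5, 13.7 and 14.9 CPM in MUTEv5#5, 19.4, 18.6 and 15.5 CPM in MUTEv5#2 and 13.6, 14.3 and 13.1 CPM in MUTE. All libraries of MUTEPPP#3 and MUTEv5#2 exceeded those of MUTE, and the call was made in MUTEPPP#3 (log2 fold change 0.48 with SE 0.11, adjusted p = 0.0108); in MUTEv5#2 over MUTE the adjusted p of 0.065 was the lowest of the 46 genes. *CDT1B* (AT3G54710) stood at 6, 8.26 and 8.43 CPM in MUTEPPP#3, 7.59, 7.22 and 8.22 CPM in MUTEv5#5, 6.96, 7.23 and 6.96 CPM in MUTEv5#2 and 7.19, 5.1 and 5.86 CPM in MUTE (log2 fold change 0.32 with SE 0.15, adjusted p = 0.146), with overlap between MUTEPPP#3 and MUTE.

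The helicase genes moved together but by less. Of *MCM2* to *MCM7*, which form the ring, 1 of 6 rose in MUTEPPP#3 over MUTE, and all 6 were above zero, with log2 fold changes from 0.25 to 0.43 and a median of 0.40. *MCM4* (AT2G16440), the gene called, stood at 22.3, 25.6 and 24.2 CPM in MUTEPPP#3, 19.1, 20.9 and 18.3 CPM in MUTEv5#5, 25.8, 21.5 and 18.7 CPM in MUTEv5#2 and 17.9, 19.4 and 18.1 CPM in MUTE (log2 fold change 0.38 with SE 0.11, adjusted p = 0.0354). MUTEPPP#3 lay wholly above MUTE, and MUTEv5#2 replicate 1 was the highest of all. The call of *MCM4* was lost in 8 of 23 other settings. *MCM2* (AT1G44900) (adjusted p = 0.0511) and *MCM5* (AT2G07690, 0.0552) came just short of the threshold, and *MCM6* (AT5G44635) and *MCM7* (AT4G02060) had log2 fold changes of 0.25 and 0.32 without a call. *MCM3* (AT5G46280) stood at 23.3, 31.3 and 29.2 CPM in MUTEPPP#3, 18.9, 20.9 and 17.4 CPM in MUTEv5#5, 29.6, 21.2 and 18.7 CPM in MUTEv5#2 and 21, 22.4 and 19.1 CPM in MUTE. It was called over MUTEv5#5 (log2 fold change 0.55 with SE 0.17, adjusted p = 0.0482) and not over MUTE (adjusted p = 0.0855). *MCM10* (AT2G20980), whose product in yeast and animals helps to activate the loaded helicase, stood at 5.24, 6.5 and 5.77 CPM in MUTEPPP#3, 3.45, 3.08 and 3.65 CPM in MUTEv5#5, 5.67, 4.96 and 4.49 CPM in MUTEv5#2 and 3.91, 4.37 and 3.91 CPM in MUTE. MUTEPPP#3 lay above MUTE and MUTEv5#5 in every library, and MUTEv5#5 lay wholly below MUTE without a call. The rise was called over MUTE (log2 fold change 0.52 with SE 0.13, adjusted p = 0.0152) and over MUTEv5#5 (log2 fold change 0.78 with SE 0.13, adjusted p = 0.00464). *MCM9* (AT2G14050), which in animals acts with MCM8 in recombination repair and is no part of the ring, stood at 5.07, 5.29 and 4.83 CPM in MUTEPPP#3, 6.2, 6.15 and 5.95 CPM in MUTEv5#5, 7.41, 6.32 and 5.7 CPM in MUTEv5#2 and 7.21, 6.06 and 6.27 CPM in MUTE. It fell in MUTEPPP#3 over MUTE (log2 fold change -0.36 with SE 0.12, adjusted p = 0.0425), a call lost in 16 of 23 other settings. *MCM8* (AT3G09660) was not called (log2 fold change 0.10).

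CDC45 and GINS complete the active helicase, and 2 of their 5 genes rose in MUTEPPP#3, with a median log2 fold change of 0.41. *PSF2* (AT3G12530), a GINS subunit, stood at 3.48, 4.91 and 5.05 CPM in MUTEPPP#3, 2.92, 3.1 and 2.85 CPM in MUTEv5#5, 3.87, 3.1 and 3.06 CPM in MUTEv5#2 and 3.29, 3.01 and 2.54 CPM in MUTE (log2 fold change 0.60 with SE 0.17, adjusted p = 0.0255). *CDC45* (AT3G25100) stood at 5.45, 6.48 and 7.49 CPM in MUTEPPP#3, 5.66, 5.55 and 5.63 CPM in MUTEv5#5, 5.17, 5.18 and 4.72 CPM in MUTEv5#2 and 4.75, 5.37 and 4.47 CPM in MUTE (log2 fold change 0.41 with SE 0.12, adjusted p = 0.0358). Both were higher in every MUTEPPP#3 library than in any MUTE library, and in replicates 2 and 3 more than in replicate 1. *CDC45* was also higher in every MUTEv5#5 library than in any MUTE library, without a call. The GINS genes *SLD5* (AT5G49010, log2 fold change 0.49, adjusted p = 0.0529), *PSF1* (AT1G80190, 0.38, 0.166) and *PSF3* (0.00, 0.991) were not called. *PSF3* (AT1G19080) shares 94.6% identity over 740 bases with AT3G55490, so its count is uncertain.

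Of the 7 genes for DNA polymerases and primase, 2 rose in MUTEPPP#3 over MUTE. *PRIM1* (AT5G41880), the catalytic subunit of primase, which lays the RNA primer, stood at 11.2, 16.7 and 16.4 CPM in MUTEPPP#3, 9.88, 10.4 and 10.3 CPM in MUTEv5#5, 12.8, 10.1 and 9.04 CPM in MUTEv5#2 and 9.56, 11 and 9.73 CPM in MUTE (log2 fold change 0.55 with SE 0.16, adjusted p = 0.0324). *PRIM2* (AT1G67320), the large primase subunit, stood at 11.4, 15.7 and 15.4 CPM in MUTEPPP#3, 10.1, 10.7 and 9.42 CPM in MUTEv5#5, 13.3, 10.5 and 10.3 CPM in MUTEv5#2 and 11, 12.4 and 11 CPM in MUTE. It was called over MUTEv5#5 (log2 fold change 0.49 with SE 0.14, adjusted p = 0.0402) and not over MUTE (log2 fold change 0.30, adjusted p = 0.138). *DPB2* (AT5G22110), the second subunit of polymerase epsilon, stood at 5.57, 7.33 and 8.26 CPM in MUTEPPP#3, 5.65, 5.37 and 5.32 CPM in MUTEv5#5, 6.41, 5.9 and 5.09 CPM in MUTEv5#2 and 5.3, 5 and 4.18 CPM in MUTE (log2 fold change 0.55 with SE 0.15, adjusted p = 0.027). For both *PRIM1* and *DPB2* the MUTEPPP#3 libraries lay above every MUTE library. For *DPB2* the MUTEv5#5 libraries did so too, without a call. The catalytic subunits of polymerases alpha (*ICU2*, AT5G67100, log2 fold change 0.20), delta (*POLD1*, AT5G63960, 0.07) and epsilon (*POL2A*, AT1G08260, 0.10) were not called, nor was *POLA2* (AT1G67630, 0.32). The 95% interval of *POLD1* ran from -0.15 to 0.30 and that of *POL2A* from -0.19 to 0.39. *POL2A* shares 88.7% identity over 6096 bases with AT2G27120, so its count is uncertain.

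Both genes of the sliding clamp rose, and the clamp loader was divided. *PCNA1* (AT1G07370) stood at 21.5, 24.6 and 23.4 CPM in MUTEPPP#3, 16, 17.3 and 20.1 CPM in MUTEv5#5, 22, 18.2 and 16.1 CPM in MUTEv5#2 and 13.1, 15.2 and 14.4 CPM in MUTE. The 3 MUTE libraries were the lowest of all 12, below every library of each variant line. *PCNA2* (AT2G29570) stood at 24.4, 29.4 and 28.2 CPM in MUTEPPP#3, 20.2, 22.2 and 22.4 CPM in MUTEv5#5, 23.8, 20.2 and 18.6 CPM in MUTEv5#2 and 16.8, 20.5 and 17.8 CPM in MUTE. The log2 fold change in MUTEPPP#3 over MUTE was 0.70 for *PCNA1* (SE 0.13, adjusted p = 0.00405) and 0.57 for *PCNA2* (SE 0.12, adjusted p = 0.00664). The pair aligns at 85.7% identity over 788 bases, so reads may have been split between them. Of the 5 loader subunits, 2 rose. *RFC4* (AT1G21690) stood at 14.5, 17.8 and 20.3 CPM in MUTEPPP#3, 13, 13.1 and 12.1 CPM in MUTEv5#5, 14.3, 13.1 and 14.1 CPM in MUTEv5#2 and 12.5, 12.1 and 13.2 CPM in MUTE (log2 fold change 0.48 with SE 0.11, adjusted p = 0.0116). *RFC2* (AT1G63160) stood at 6.25, 8.2 and 8.03 CPM in MUTEPPP#3, 6.48, 6.8 and 5.71 CPM in MUTEv5#5, 6.62, 5.76 and 5.71 CPM in MUTEv5#2 and 5.52, 5.41 and 4.95 CPM in MUTE (log2 fold change 0.50 with SE 0.13, adjusted p = 0.0174). In both, every MUTEPPP#3 library lay above every MUTE library. For *RFC2* every library of MUTEv5#5 and MUTEv5#2 did so too, without a call. The large subunit *RFC1* (AT5G22010) had a log2 fold change of -0.23 and was not called, although its MUTEPPP#3 libraries all lay below those of MUTE (adjusted p = 0.0985). AT5G27740, called *RFC3* here, and AT1G77470, called *RFC5* here and *RFC3* in RefSeq, had log2 fold changes of 0.07 and 0.19 and were not called.

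Of the 4 genes of nucleotide supply, 2 rose in MUTEPPP#3 over MUTE. Ribonucleotide reductase makes deoxyribonucleotides from 2 kinds of subunit. *RNR1* (AT2G21790), its large subunit, stood at 47.2, 89.6 and 89.5 CPM in MUTEPPP#3, 46.7, 49 and 42.3 CPM in MUTEv5#5, 59.4, 47.4 and 42.5 CPM in MUTEv5#2 and 48.1, 50.2 and 43.1 CPM in MUTE. MUTEPPP#3 replicates 2 and 3 were far above all other libraries, and replicate 1 lay within the range of MUTE. The call (log2 fold change 0.68 with SE 0.21, adjusted p = 0.0408) therefore rests on those 2 libraries and was lost in 12 of 23 other settings. *TSO2* (AT3G27060), the main small subunit, stood at 63.6, 85.8 and 76.2 CPM in MUTEPPP#3, 64.9, 78.3 and 72.9 CPM in MUTEv5#5, 68.4, 55.5 and 56.1 CPM in MUTEv5#2 and 53.7, 58.9 and 49.2 CPM in MUTE. Both MUTEPPP#3 and MUTEv5#5 lay wholly above MUTE, with a call in MUTEPPP#3 (log2 fold change 0.48 with SE 0.13, adjusted p = 0.0225) and none in MUTEv5#5 (log2 fold change 0.42, adjusted p = 0.146, the lowest of the 46 genes in that comparison). *RNR2A* (AT3G23580), another small subunit gene, stood at 10.5, 14.2 and 16.7 CPM in MUTEPPP#3, 12, 13.4 and 11.6 CPM in MUTEv5#5, 13.5, 11.7 and 12.4 CPM in MUTEv5#2 and 19.9, 14.5 and 11.5 CPM in MUTE (log2 fold change -0.15 with SE 0.20, adjusted p = 0.619), with the MUTE libraries spread over most of the range. Thymidine kinase *TK1A* (AT3G07800) was not called (log2 fold change 0.32). At the last step, *FEN1* (AT5G26680), the nuclease that trims Okazaki fragments, stood at 13.4, 16.2 and 17.1 CPM in MUTEPPP#3, 12, 13.4 and 12 CPM in MUTEv5#5, 13.9, 11.8 and 13.5 CPM in MUTEv5#2 and 11.1, 11.4 and 10.4 CPM in MUTE. Every MUTEPPP#3 library exceeded every MUTE library (log2 fold change 0.51 with SE 0.11, adjusted p = 0.00782). Every library of MUTEv5#5 and MUTEv5#2 did so too, without a call. The ligase *LIG1* (AT1G08130, log2 fold change 0.18) and the MCM-binding factor *ETG1* (AT2G40550, 0.46, adjusted p = 0.0635) were not called.

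**Figure D3:**
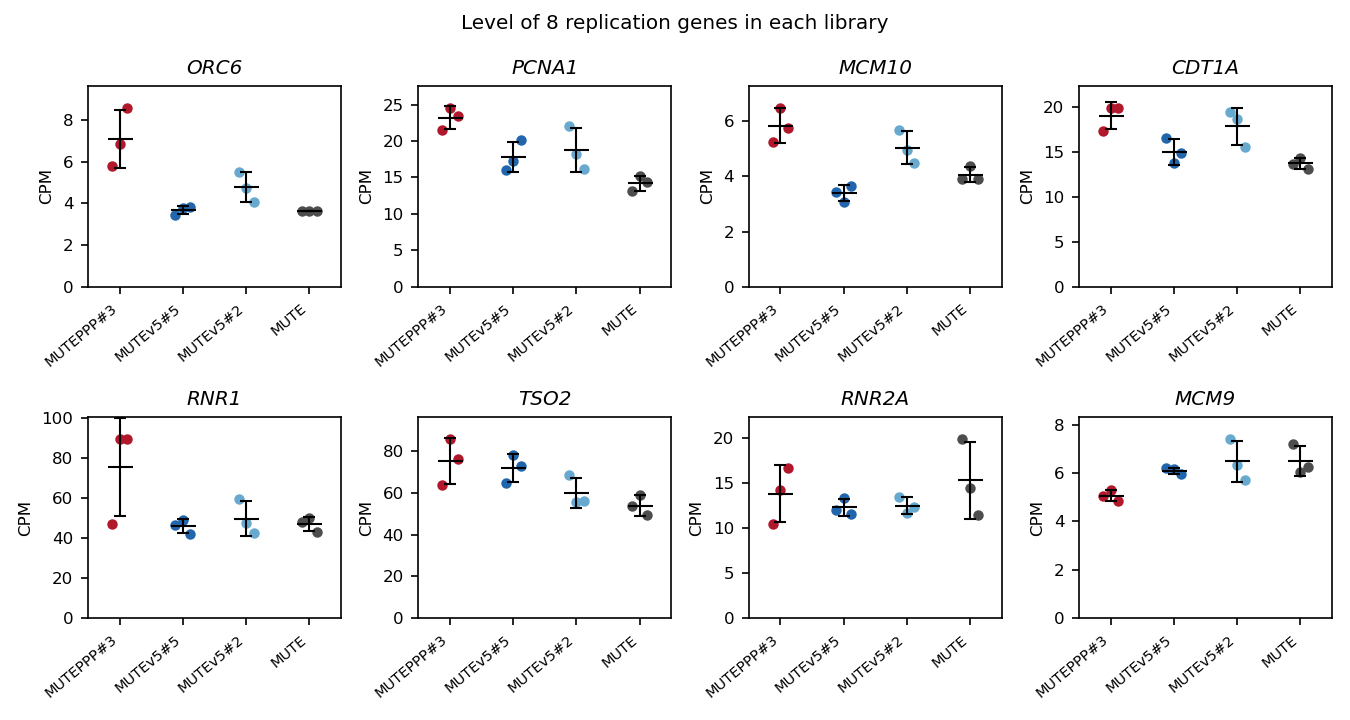
CPM of 8 replication genes in every library (points, replicates 1 to 3 from left to right within a line), with mean and SD (bars). *ORC6* is higher in every MUTEPPP#3 library than in any other, with 5.82 CPM in replicate 1 against 5.52 in MUTEv5#2 replicate 1. *RNR1* is high in MUTEPPP#3 replicates 2 and 3 but not in replicate 1, and *MCM9* is lowest in MUTEPPP#3.

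In the MUTEv5 lines no replication gene passed edgeR's test against MUTE. In MUTEv5#5 over MUTE, edgeR called 0 of 46 in either direction, against 0.314% higher and 0.725% lower (1.04% together) of all genes. DESeq2 and limma-voom also called 0, 5 genes had an unadjusted p under 0.05, and the median log2 fold change was 0.02, with 27 of 46 above zero. MUTEv5#5 lay wholly above MUTE for 9 genes and wholly below for 4, where all genes gave 10.2% and 10.5%. The 95% intervals over the 46 genes in MUTEv5#5 over MUTE reached from -1.30 to 0.70, so the missing calls do not show equal levels. In MUTEv5#2 over MUTE, edgeR called 0 of 46, against 1.48% higher and 3.55% lower (5.04% together) of all genes. DESeq2 called 2 of 46 higher, where it called 4.5% of all genes higher, and limma-voom called 0. At an unadjusted p under 0.05 there were 7 genes, and the median was 0.15, with 34 of 46 above zero. MUTEv5#2 lay wholly above MUTE for 8 genes and wholly below for 0, against 14.2% and 16.1% of all genes. A single library carried most of that median: without MUTEv5#2 replicate 1 it was 0.05. That library had 35 of 46 genes above every MUTE library and 0 below every one. Replicates 2 and 3 had 16 and 11 above and 7 and 12 below. The share of all genes placed in this way in a single library was not counted.

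Between the 2 lines of the same R10W allele, MUTEv5#5 over MUTEv5#2, edgeR called 0 of 46, against 0.0177% higher and 0.0486% lower (0.0663% together) of all genes. The median was -0.09, with 10 of 46 above zero and 4 genes at an unadjusted p under 0.05; DESeq2 called 1 lower and limma-voom 0.

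**Figure D4:**
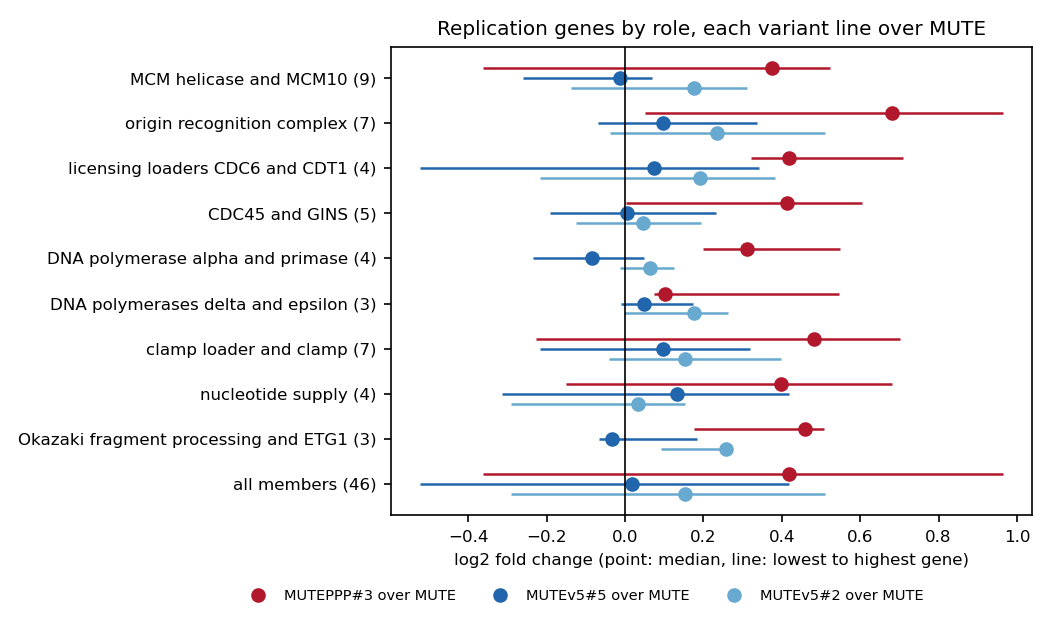
Log2 fold change over MUTE of the replication genes by role (number of genes in brackets), for MUTEPPP#3, MUTEv5#5 and MUTEv5#2; points are medians and lines run from the lowest to the highest gene. The medians of MUTEPPP#3 lie between 0.10 (polymerases delta and epsilon) and 0.68 (origin recognition complex), and the overall median is 0.42 in MUTEPPP#3, 0.02 in MUTEv5#5 and 0.15 in MUTEv5#2.

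MUTEPPP#3 was also set against each line of the other variant. In MUTEPPP#3 over MUTEv5#5, 9 of 46 rose (19.6%, against 6.32% of all genes) and 0 fell (against 9.38%), with a median of 0.34 and 43 of 46 above zero. At an unadjusted p under 0.05 there were 27. The 9 were *ORC6*, *MCM10*, *RNR1*, *CDC6B*, *PSF2*, *MCM3*, *PRIM1*, *PRIM2* and *RFC4*; 7 of them were also called over MUTE, and the comparisons share the MUTEPPP#3 libraries. *ORC6* (log2 fold change 0.94 with SE 0.15, adjusted p = 0.00463) and *MCM10* kept their calls in 21 of 23 other settings, whereas *RNR1* lost its call in 15, *PRIM1* in 14, *MCM3* in 13, *PRIM2* and *PSF2* in 9 each, *CDC6B* in 7 and *RFC4* in 6. With the clock index as a term the 9 calls became 0, where 0.561% of all genes were called higher. They became 2 without MUTEPPP#3 replicate 2, without its replicate 3 or without MUTEv5#5 replicate 3. There 1.21%, 2.74% and 2.42% of all genes were called higher. Without MUTEPPP#3 replicates 2 and 3 together the median was 0.09. In MUTEPPP#3 over MUTEv5#2, edgeR called 0 of 46, against 1.06% higher and 1.4% lower (2.47% together) of all genes. The median was 0.25, with 43 of 46 above zero and 18 at an unadjusted p under 0.05. DESeq2 called 4 higher, against 4.81% of all genes, and limma-voom 0. Without MUTEPPP#3 replicate 1 edgeR called 10 higher, against 4.71% of all genes. Without MUTEPPP#3 replicates 2 and 3 the median was 0.01.

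Replicates of MUTEPPP#3 differed from each other. The median over the 46 genes, relative to the mean of MUTE, was 0.12, 0.52 and 0.50 in MUTEPPP#3. Its libraries had 23, 39 and 41 genes above every MUTE library and 9, 2 and 2 below. The share of all genes placed in this way was not counted. Circadian clock genes differed along the same division of libraries. A clock index, the mean log2 CPM of 3 morning genes (*CCA1*, *LHY*, *PRR9*) minus that of 5 evening genes (*TOC1*, *GI*, *ELF4*, *LUX*, *PRR5*), stood at -0.14, -3.58 and -5.20 in MUTEPPP#3, 3.19, 0.10 and 2.12 in MUTEv5#5, 1.43, 1.16 and -0.10 in MUTEv5#2 and 3.84, 0.51 and 1.11 in MUTE. MUTEPPP#3 replicates 2 and 3 thus lay below all other libraries on the index and highest for replication genes. With the index as a term in the fit, 0 of 46 were called in MUTEPPP#3 over MUTE and the median was 0.22. That fit, whose median SE was 0.22 against 0.15 without the term, still called 969 genes higher and 1964 lower over all genes. Every MUTEPPP#3 library had a lower index than every library of the other lines, so the index and the line cannot be told apart. The time of day of harvest is not given in the sources used here.

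**Figure D5:**
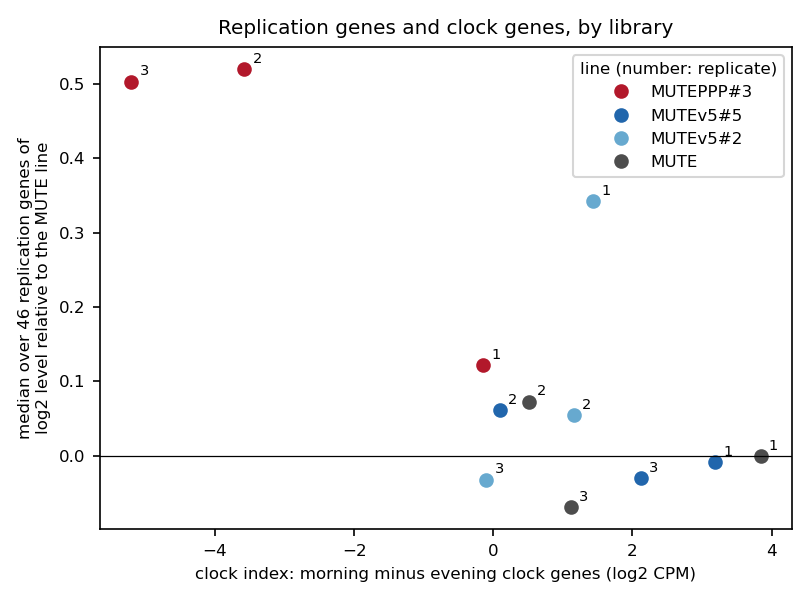
Median log2 level of the 46 replication genes relative to the MUTE line against the clock index, for each of the 12 libraries (colour: line, number: replicate). MUTEPPP#3 replicates 2 and 3 stand apart at the upper left, while MUTEv5#2 replicate 1 is high (0.34) with an index of 1.43.

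Markers of other cells were read beside this result, over whole lists. Of 3 shoot meristem genes in the table, 0 were called in MUTEPPP#3 over MUTE. Their summed CPM was 63.6, 90.2 and 93 in MUTEPPP#3, 62.3, 64.5 and 64 in MUTEv5#5, 47.3, 56.9 and 52.6 in MUTEv5#2 and 46.9, 65.1 and 65.3 in MUTE. Nearly all of that sum was the receptor gene *CLV1* (log2 fold change 0.49, adjusted p = 0.0561); *STM* had a log2 fold change of 0.01, and *CLV3* averaged 0.191 CPM in MUTEPPP#3 and 0.121 CPM in MUTE. Of 5 root meristem genes, 4 had a log2 fold change above zero without a call (median of the 5, 0.35), and *SCR* fell (log2 fold change -0.53 with SE 0.10, adjusted p = 0.00427). Their sum, carried by *SCR*, was 53.7, 47.7 and 49.3 in MUTEPPP#3, 62.9, 69.5 and 72.2 in MUTEv5#5, 60.9, 66 and 59.3 in MUTEv5#2 and 66, 60.1 and 57.2 in MUTE. Of 7 guard cell genes, *SLAC1* rose (log2 fold change 0.51 with SE 0.14, adjusted p = 0.0281), *ALMT12* fell (log2 fold change -0.64 with SE 0.17, adjusted p = 0.0185) and the other 5 were not called. Only 1 of the 7 was above zero, with a median of -0.285, and 3 lay wholly below MUTE, against 21.5% of all genes. In MUTEv5#2 and MUTEv5#5 over MUTE, 5 and 4 of these 7 genes fell, against 3.55% and 0.725% of all genes. Their sum, nearly all *TGG1*, was 1077, 1208 and 1059 in MUTEPPP#3, 547, 573 and 402 in MUTEv5#5, 621, 549 and 571 in MUTEv5#2 and 1405, 1453 and 1257 in MUTE. Early genes of the stomatal lineage (6 listed) gave 1 rise and 1 fall in MUTEPPP#3 over MUTE, and 6 of 6 rose in each MUTEv5 line over MUTE. Their sum was 92.8, 90.9 and 91.3 in MUTEPPP#3, 204, 182 and 178 in MUTEv5#5, 160, 157 and 135 in MUTEv5#2 and 103, 89.9 and 96.5 in MUTE. The part of these cell types in the replication result was not tested.

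Per kilobase of exon, the mean level in MUTE was highest for *TSO2*, at 31.9 CPM per kb, followed by *RNR1* at 15.7, *PCNA2* at 15.6 and *PCNA1* at 12.6, and lowest for *CDC6B* at 0.569 and *ORC1A* at 0.447. *PCNA2* exceeded *PCNA1* in every library, by a ratio per kb of 1.03 to 1.29. *ORC1B* exceeded *ORC1A*, by 4.44, 5.18 and 6.51 in MUTEPPP#3 and 7.38, 5.07 and 4.66 in MUTE. The ratio of *TSO2* to *RNR2A* was 6.07, 6.02 and 4.55 in MUTEPPP#3, 5.42, 5.82 and 6.29 in MUTEv5#5, 5.06, 4.75 and 4.5 in MUTEv5#2 and 2.7, 4.05 and 4.26 in MUTE, so each variant line lay above MUTE without overlap. *CDC6A* over *CDC6B* ranged from 2.94 to 8.74, both extremes being MUTE libraries. Over the 12 libraries, log2 levels of *MCM2* to *MCM7* had pairwise correlations of 0.824 to 0.957 (15 pairs, median 0.921), and all 1035 pairs of the 46 genes had a median of 0.639. *PRIM1* followed the median of the other genes most closely (r = 0.974), and *MCM9* (-0.411) and *RFC1* (-0.025) did not follow it. These correlations include the differences between lines and the scaling that all genes of a library share.

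Other genes of the cell cycle were counted in lists, again in MUTEPPP#3 over MUTE, where 10.7% of all genes rose and 13.9% fell. Of 22 replication genes outside the 46, 11 rose and 0 fell (median log2 fold change 0.40), among them *RPA1D* (0.78) and *RPA1E* (0.74), subunits of the protein that covers single-stranded DNA, and *DUT1* (0.74), which removes dUTP. Of 8 genes for chromatin assembly and the replication-coupled histone H3.1, 4 rose (median 0.52), all H3.1 genes with closely related sequences. Of 16 regulators of the G1 to S step 7 rose (median 0.34), including the D-type cyclins *CYCD4;1* (0.95) and *CYCD3;3* (0.58) and the atypical E2F gene *DEL1* (0.59). Of the 16, 12 were above zero and 0 fell. Means were lower in MUTEPPP#3 than in MUTE for *CYCD3;1* (18.5 and 21.2 CPM), *CYCD3;2* (45.6 and 50.8), *RBR1* (39.4 and 44.6) and *DPB* (12.1 and 12.8). *CYCD3;1*, also a D-type cyclin, was called lower in MUTEPPP#3 over MUTEv5#5. Of 9 inhibitors of cyclin-dependent kinases 0 rose and 3 fell: *KRP1* stood at 4.67, 3.6 and 4.72 CPM in MUTEPPP#3, 9.09, 7.57 and 11.9 CPM in MUTEv5#5, 7.07, 6.33 and 7.13 CPM in MUTEv5#2 and 17, 8.61 and 13.1 CPM in MUTE (log2 fold change -1.58 with SE 0.24, adjusted p = 0.0019), and *KRP4* (log2 fold change -0.82 with SE 0.14, adjusted p = 0.00329) and *SMR1* (log2 fold change -0.78 with SE 0.23, adjusted p = 0.0296) fell as well. *KRP1* and *KRP4* also fell in MUTEv5#2 over MUTE (log2 fold changes -0.92 and -0.71), calls lost in 18 and 6 of 23 other settings. Of 12 mitosis genes 1, *CDKB2;2* (0.38), rose (8.33%, near the share of all genes), and 12 were above zero, with a median of 0.25. Of 6 DNA damage response genes 0 rose and 1, AT2G31320, fell (log2 fold change -0.32 with SE 0.08, adjusted p = 0.0173), 16.7% against 13.9% of all genes; 5 of the 6 were above zero, with a median of 0.27. These calls share the libraries and the fit of the 46 genes. Without MUTEPPP#3 replicates 2 and 3, the medians of these 6 lists, in the order given, were 0.27, 0.36, 0.23, -0.04, 0.06 and 0.06. With the clock index as a term, 2 replication genes outside the 46 were called higher and 1 lower, with 2 higher of the chromatin genes, 3 higher of the G1 to S regulators, 1 higher and 1 lower of the inhibitors and 0 of the mitosis and DNA damage genes. *RPA1D*, *RPA1E*, *CYCD4;1* and *KRP1* lost their calls in that fit, and *CYCD3;3* and *KRP4* kept them.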

How the data were processed

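The authors deposited raw counts, 1 whole number per gene and library, per the file headers; the lowest value is 1, and the sources used here do not give how zeros, strand or read pairs were handled. Per the submitters' processing notes the tools were DESeq2, StringTie 2.1.3b, HISAT2 2.1.0, Trimmomatic 0.38, Bowtie2 2.3.4.1 and FastQC, on TAIR10; the labels' protocols name a TruSeq stranded mRNA kit. 27 entries that name no gene (at most 5.96e-04% of a library) were left out. Of the 46 replication genes 18 overlap another annotated gene, so some reads may belong to a neighbour.

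Libraries were grouped by the genotype and line in the labels. Counts were tested in R 4.3.3 with edgeR 4.0.16 (TMM, filterByExpr, 4 group means, all 12 libraries, two-sided, 6 comparisons, Benjamini-Hochberg over all genes tested). The common biological coefficient of variation was 0.215, so replicate spread and not depth limits precision. DESeq2 1.42.0 and limma 3.58.1 (voom) were alternatives, with other scalings, filters, covariates and sets of libraries. The code was tested on simulated data. Same-numbered libraries of different lines had deviations correlated at -0.166 to 0.574, with 8 of 18 pairs over 0.1, and in MUTEv5#5 and MUTE, but in none of the other 5 pairs of lines, all 3 were (0.323 to 0.574). From these correlations alone, the numbers were taken to pair samples in MUTEv5#5 over MUTE only. There the block changed no call among the 46 genes. Over all genes, 71 higher and 164 lower became 67 and 150. Near copies were aligned with blastn (at least 75% identity over 200 bases). Values per library are given for genes called in any comparison, the lowest p of each role and 5 paralog pairs. The genes, lists and tests were chosen with earlier results of these data known; the omission of MUTEPPP#3 replicates 2 and 3 together was chosen after seeing the data.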

Additional observations from a re-analysis of the deposited data

How the results depend on the processing

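In MUTEPPP#3 over MUTE, 20 replication genes were called higher and 1 lower, with a median log2 fold change of 0.42. Fitting only the 2 groups compared gave 9 and 0, where 5.87% of all genes were called higher. DESeq2 gave 24 and 1, where 14.4% of all genes were called higher. The clock index as a term gave 0 and 0, with a median of 0.22; there *TOC1* (-0.51 over MUTE, -0.35 over MUTEv5#5) and *ELF4* (-0.28 over MUTE), which are part of that index, reversed. Library totals as the only scaling gave 30 higher (against 21.2% of all genes), 0 lower and a median of 0.59. That scaling moved the median of all genes by 0.17, so 0.42 of the members' median remains relative to that shift. No filter on low counts and the ribosomal and organelle share as a term each gave 0 lower. The latter gave 26 higher, against 10.4% of all genes. Leaving out 1 library gave 7 to 31 higher, 0 to 1 lower and medians of 0.35 to 0.54 (7 without MUTEPPP#3 replicate 2, 10 without MUTEPPP#3 replicate 3, 11 without MUTE replicate 3, 31 without MUTEPPP#3 replicate 1). *ORC3* lost its call in 16 of 23 settings, *RNR1* in 12, *CDC45* in 9 and *MCM4* in 8. *PSF2*, *DPB2* and *PRIM1* lost theirs in 7 each, *CDC6B*, *RFC2* and *TSO2* in 6 each, and *ORC1A* in 5. *RFC4*, *MCM10* and *ORC2* lost theirs in 3 each. Without MUTEPPP#3 replicates 2 and 3, which leaves 1 library of that line, the median was 0.12. In the same setting it was 0.092 over MUTEv5#5 and 0.014 over MUTEv5#2. *ORC6*, *PCNA1*, *PCNA2*, *CDT1A*, *ORC1B* and *FEN1* kept their calls in 21 of 23 settings, losing them under the clock index and without both replicates.

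In MUTEPPP#3 over MUTEv5#5, 9 were called higher, against 6.32% of all genes. Library totals gave 14 (against 8.85%), DESeq2 21 (10.4%), only the 2 groups 2 (2.67%) and the clock index 0 (0.561%). Leaving out 1 library gave 2 to 21 (medians 0.29 to 0.42). In MUTEPPP#3 over MUTEv5#2, DESeq2 called 4 higher, against 4.81% of all genes. Leaving out 1 library gave 0 to 10 higher, with medians of 0.16 to 0.37. The organelle share as a term gave a median of 0.092. In MUTEv5#2 over MUTE, library totals and DESeq2 each called 2 higher, where they called 4.42% and 4.5% of all genes higher. Leaving out 1 library gave 0 to 1 (medians 0.05 to 0.20), and the organelle share gave a median of 0.34. In MUTEv5#5 over MUTEv5#2, DESeq2 called 1 lower; medians leaving out 1 library were -0.16 to 0.01, and -0.02 to 0.06 in MUTEv5#5 over MUTE. The cause of these differences was not tested. In MUTEv5#5 over MUTE the replicate numbers were taken to pair the samples, from correlations in these data only. There the block, fitted over all 12 libraries, gave 0 of 46 calls and a median of 0.02, as without it. In the other 5 comparisons the numbers were not taken to pair the samples. Only 3 of 12 libraries matched their own number best in each of the other lines. Against this choice, 9 of 12 had their highest correlation with a library of their own number. With the block, these comparisons gave 20 higher and 1 lower in MUTEPPP#3 over MUTE and 7 higher in MUTEPPP#3 over MUTEv5#5.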
